A study of Mus musculus with 6 samples.

Results

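Keratins, vimentin and nestin are intermediate filament proteins, and the arrays give their mRNA levels in the 1G11-mock and 1G11-SOD3 cell lines. The members were chosen by name. They are Krt5, Krt7, Krt8, Krt14, Krt17, Krt18, Krt19, Krt80, Vim and Nes, 10 of the 36918 genes named on the array, and they had 12 probes because Krt5 and Krt8 had a pair each. 1G11 is a mouse microvascular endothelial cell line (strain C57BL/6NCrLBR per the labels), and 1G11-SOD3 cells overexpress superoxide dismutase-3, the secreted enzyme that removes superoxide outside the cell, whereas 1G11-mock cells do not. Both lines had spent 6 h in conditioned medium of N202.1A cells, a mouse mammary cancer line, so that no array shows cells without that medium. RNA from 3 replicates per cell line, described by the study as biological, was hybridized to 6 single-color Agilent mouse arrays on 1 slide. Each genotype is represented by 1 line, and the promoter that drives SOD3 is not given in the sources used here.

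Intermediate filaments are built from proteins whose set marks the type of cell. Keratins form filaments as pairs of a type I chain, such as Krt14, Krt17, Krt18 and Krt19, and a type II chain, such as Krt5, Krt7, Krt8 and Krt80, and they are best known from epithelia: Krt5 and Krt14 from the basal layer of stratified epithelia, Krt8 and Krt18 from simple epithelia, Krt7 and Krt19 from ducts and mesothelium. Vimentin is the filament protein of fibroblasts and endothelial cells, and nestin, which assembles with vimentin, is known from progenitor cells and from proliferating endothelium.

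The probes on which the results turn are 60 bases long, and their sequences are given from the array files, 5′ to 3′. The probe of Krt14 is shown because this keratin was called, that of Krt19 because it was well above background on all arrays, and that of Krt8 (probe A_55_P2128501) because it lies in another part of the gene than the other Krt8 probe.
Krt14: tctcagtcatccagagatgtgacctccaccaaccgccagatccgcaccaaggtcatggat
Krt19: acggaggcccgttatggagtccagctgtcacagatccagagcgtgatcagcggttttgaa
Krt8 probe A_55_P2128501: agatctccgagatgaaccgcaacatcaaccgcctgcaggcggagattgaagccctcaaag
For the other Krt8 probe (A_66_P128079) and the Nes probe, 30 bases are shown around the letters AATAAA, which are in capitals and are the usual polyadenylation signal near the 3′ end of a mRNA.
Krt8 probe A_66_P128079, 30 bases: tgtattttctaaAATAAAgcctcagctggc
Nes, 30 bases: ctctcttcctcccttgAATAAAgctgtatc
The array annotation, whose genome build is not named, places the Krt14 probe on the minus strand of chromosome 11 from 100064683 to 100065288, a span longer than the probe, and the Krt19 probe on the same strand from 100002392 to 100002451. It places the Krt8 probes on the minus strand of chromosome 15, A_55_P2128501 from 101828827 to 101828886 and A_66_P128079 from 101827138 to 101827197, with starts 1689 bases apart. The Nes probe lies on the plus strand of chromosome 3 from 87784303 to 87784362, and the Vim probe on the plus strand of chromosome 2 from 13504232 to 13504291.

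Levels are log2 intensities after background correction and quantile normalization, and a difference is the 1G11-SOD3 mean minus the 1G11-mock mean on that scale, tested by limma over all 55681 probes with Benjamini-Hochberg adjustment. A probe was called when the difference exceeded 2-fold with an adjusted p below 0.05. The scanner software marks a spot as well above background or not, and it did so for 34.2% to 43.8% of the 59305 non-control spots per array. No spot was saturated. The level of one probe cannot be set against that of another. In RNA from whole cultures, a different number of expressing cells and a different amount of RNA per cell cannot be told apart. The 1G11-mock arrays filled slide row 2 and the 1G11-SOD3 arrays slide row 1, so that effects of slide row and cell line cannot be told apart. The spots in the middle of the array (the central of 3 near-equal parts of its 384 rows and of its 164 columns) were dimmer on the 1G11-mock arrays, and the members printed there are given apart. Sod3, which checks the labels, is printed there too. Its levels were 13.61, 12.66 and 9.86 on the 1G11-mock arrays and 16.37, 16.29 and 16.27 on the 1G11-SOD3 arrays, a difference of 4.27 (adjusted p = 0.007906, limma), which was 2.76 after the position adjustment described below (adjusted p = 0.01351) and 2.71 with finer blocks, called in each case.

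Of the 12 member probes, 3 were well above background on all 6 arrays (Krt19, Vim and Krt8 probe A_66_P128079), 5 on some arrays (Krt14, Krt80, Nes, Krt5 probe A_51_P186856 and Krt8 probe A_55_P2128501) and 4 on none (Krt7, Krt17, Krt18 and Krt5 probe A_66_P116076). The 2 probes in the middle of the array were those of Krt14 and Nes. The same 2 probes were the only ones called higher in 1G11-SOD3 cells, and no member probe was called lower. Over all probes, 1.86% were called higher, 1.05% lower and 2.92% in either direction. Among probes with every spot in the middle, 11.6% were called higher, against 0.646% of the probes with no spot there. The 10 member probes outside the middle gave 0 calls, where 1.82% of all such probes were called in either direction.

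**Figure D1:**
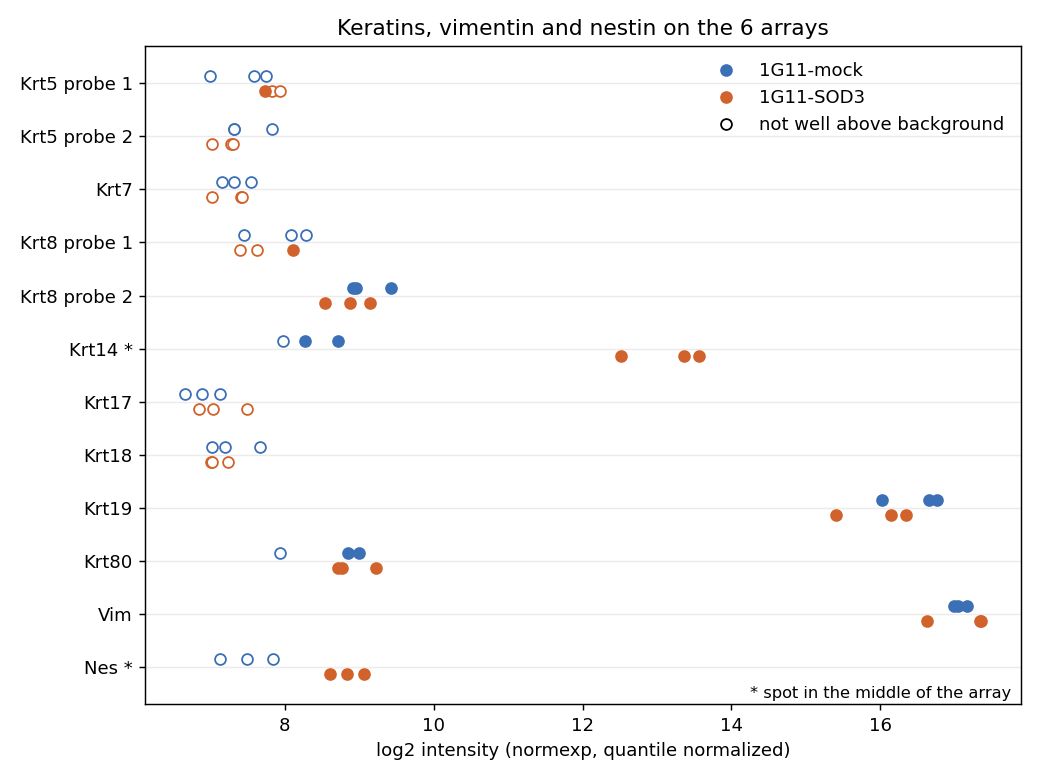
Log2 intensity (horizontal axis) of each of the 12 member probes on the 3 1G11-mock and 3 1G11-SOD3 arrays, 1 point per array. Open points are spots not well above background; Krt5 probe 1 is A_51_P186856, Krt5 probe 2 is A_66_P116076, Krt8 probe 1 is A_55_P2128501 and Krt8 probe 2 is A_66_P128079. Krt14 lies between 7.98 and 8.71 on the 1G11-mock arrays and between 12.52 and 13.56 on the 1G11-SOD3 arrays, and Vim and Krt19 are filled points on all arrays.

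Krt14, the type I keratin of basal epithelial cells, had the largest difference among the members. Before normalization, its mean spot intensity was 530, 420 and 445 on the 1G11-mock arrays, over local backgrounds of 69, 72 and 105. On the 1G11-SOD3 arrays it was 14400, 6710 and 14600, over local backgrounds of 81, 82 and 91.5. The spot was thus bright on every 1G11-SOD3 array and dim on every 1G11-mock array, where replicate 3 was not well above background.

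After normalization, the Krt14 levels were 8.71, 8.27 and 7.98 in 1G11-mock cells and 13.56, 12.52 and 13.36 in 1G11-SOD3 cells. The groups did not overlap, which was so for 20.6% of all probes. The means were 8.32 ± 0.37 and 13.15 ± 0.55 (SD, n = 3 each), and the log2 difference was 4.82 (28.3-fold, SE 0.307, 95% interval 4.15 to 5.50, adjusted p = 7.59e-05, limma). With any array left out, the difference was between 4.57 and 5.09 and the call remained (adjusted p up to 0.001922).

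The spots around the Krt14 spot were also higher in 1G11-SOD3 cells. Of those within 6 rows and 6 columns, 45 were well above background on 3 or more arrays. A spot could enter this set through the 1G11-SOD3 arrays alone, which can raise the median of the set. Their median difference was 2.83, with quartiles of 1.76 and 3.80 and a range of 0.00 to 5.21. Only 2 of the 45 had a larger difference than Krt14. When a surface of array position (the median over blocks of 24 rows and 12 columns) was taken off each array, the Krt14 levels became 9.15, 9.57 and 9.63 in 1G11-mock cells and 12.35, 11.91 and 11.99 in 1G11-SOD3 cells. The groups still did not overlap. The position-adjusted difference was 2.63 (6.21-fold, SE 0.235, 95% interval 2.11 to 3.16, adjusted p = 0.00073, limma), and Krt14 was called higher, as were 1.13% of all probes. With finer blocks of 12 rows and 6 columns, a setting chosen after seeing the data, the difference was 1.69 (SE 0.238, adjusted p = 0.004713), still called, as were 1.09% of all probes. The surface comes from spots well above background on 3 or more arrays, and dim spots receive the same amount. Krt14 was dim on the 1G11-mock arrays, at 8.71, 8.27 and 7.98 before the adjustment. The lowest signals well above background there were 8, 7.95 and 7.74. The values of 2.63 and 1.69 are thus not corrected sizes, and how far this limit enters them was not tested. The size of the Krt14 difference depended on how array position was treated, and its direction and call did not under these settings.

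Nes, the only other called member, had a dim spot. Its mean spot intensity was 296, 355 and 355 on the 1G11-mock arrays and 682, 497 and 768 on the 1G11-SOD3 arrays. None of the 3 1G11-mock spots and all 3 of the 1G11-SOD3 spots were well above background.

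The normalized Nes levels were 7.49, 7.84 and 7.13 in 1G11-mock cells (7.48 ± 0.36) and 9.06, 8.60 and 8.83 in 1G11-SOD3 cells (8.83 ± 0.23). The groups did not overlap, which was so for 20.6% of all probes. The fitted difference was 1.34 (SE 0.253, 95% interval 0.79 to 1.90, adjusted p = 0.01594, limma). Since the 1G11-mock level is only a bound, the fold without position adjustment is given against a floor. Each 1G11-mock value was raised, where lower, to the lowest signal well above background on that array. Against the mean of these values, the 1G11-SOD3 mean was 1.91-fold higher. In log2 this is 0.93, above the lower interval end of 0.79, so that it is not a smallest size. The call was lost when 1G11-SOD3 replicate 1 (1.22, adjusted p = 0.07766) or replicate 3 (1.26, adjusted p = 0.07381) was left out.

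The Nes difference was smaller than that of most spots around it. The 57 neighboring spots, chosen as for Krt14 and with the same limit, had a median difference of 2.69 (quartiles 1.71 and 3.91). Of them, 49 exceeded Nes. After position adjustment, the Nes levels were 8.13, 9.72 and 8.68 in 1G11-mock cells and 7.59, 7.92 and 7.70 in 1G11-SOD3 cells. The direction was turned, and the groups again did not overlap. The difference was -1.11 (SE 0.358, 95% interval -1.90 to -0.31, adjusted p = 0.1113, limma), and Nes was not called. The surface is measured on spots well above background on 3 or more arrays of either cell line. It is taken off dim spots in the same amount. The gene lists described below hold 10 genes printed in the middle and well above background on no array. Their differences were -0.25 to 0.32 before the adjustment (median 0.08) and -2.12 to -0.31 after it (median -1.05), and 4 of them (Krt24, Krt87, Krt88 and Eppk1) were then called lower while 6 were not called. Neither a rise nor a fall of Nes held in both ways of treating position.

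**Figure D2:**
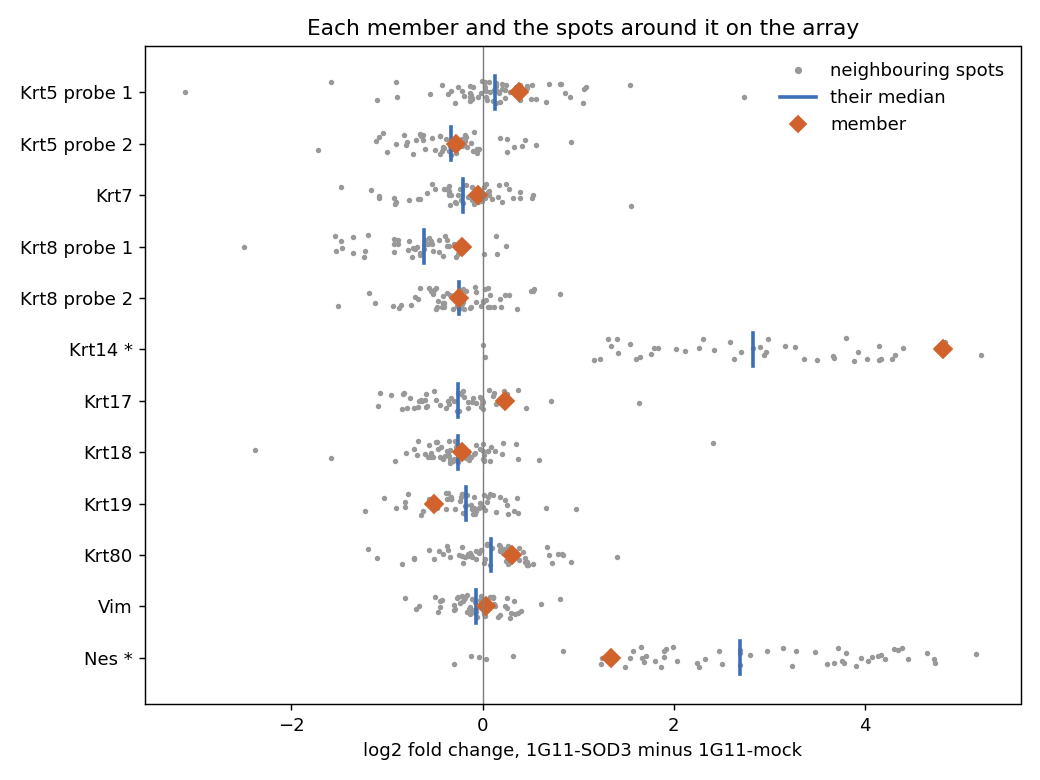
Log2 fold change, 1G11-SOD3 minus 1G11-mock (horizontal axis), of each member probe (diamond) and of the spots within 6 rows and 6 columns of it that were well above background on 3 or more arrays (dots, with their median as a line). Stars mark the spots in the middle of the array: Krt14 lies near the top of its 45 neighbors, whose median is 2.83, and Nes lies below most of its 57, whose median is 2.69.

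Vim, the type III filament protein of mesenchymal and endothelial cells, was bright on every array and did not pass the test. Its mean spot intensity was between 102000 and 119000 on the 1G11-mock arrays and between 118000 and 202000 on the 1G11-SOD3 arrays. The normalized levels were 17.04, 16.99 and 17.17 in 1G11-mock cells (17.07 ± 0.09) and 16.63, 17.35 and 17.34 in 1G11-SOD3 cells (17.11 ± 0.41). The 1G11-SOD3 arrays lay on both sides of the 1G11-mock arrays. The difference was 0.04 (SE 0.253, 95% interval -0.52 to 0.59, adjusted p = 0.9671, limma), an interval that holds no 2-fold change, and it was 0.09 after position adjustment. Its sign changed with the array left out, with values between -0.08 and 0.28.

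Krt19, the type I keratin of ducts and mesothelium, was well above background on all 6 arrays. The levels were 16.02, 16.66 and 16.76 in 1G11-mock cells (16.48 ± 0.40) and 15.41, 16.34 and 16.14 in 1G11-SOD3 cells (15.96 ± 0.49). The groups overlapped, and 1G11-SOD3 replicate 1 was the lowest of the 6. The difference was -0.51 (SE 0.300, 95% interval -1.17 to 0.15, adjusted p = 0.4878, limma) and -0.44 after position adjustment (adjusted p = 0.3045). A 2-fold lower level lies within the first of these intervals, so that 3 arrays per cell line did not settle it.

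The type II chains gave dim signals. Krt8, which pairs with Krt18 and also with Krt19, had probes that differed in detection. Probe A_66_P128079, which is described on the array by a former name of Krt8 and holds the letters AATAAA, was well above background on all 6 arrays. Its levels were 8.92, 8.95 and 9.43 in 1G11-mock cells (9.10 ± 0.29) and 9.15, 8.87 and 8.54 in 1G11-SOD3 cells (8.85 ± 0.31), and the groups overlapped. The difference was -0.25 (SE 0.252, 95% interval -0.80 to 0.31, adjusted p = 0.7184, limma), and it was 0.15 after position adjustment. Probe A_55_P2128501 was well above background on 1G11-SOD3 replicate 1 alone. Its levels were 7.45, 8.08 and 8.29 in 1G11-mock cells and 8.11, 7.63 and 7.40 in 1G11-SOD3 cells, which overlapped, and no fold is given for it.

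Krt80, a type II keratin of differentiating epithelia, was well above background on every array but 1G11-mock replicate 1. Its levels were 7.94, 8.99 and 8.85 in 1G11-mock cells (8.59 ± 0.57) and 8.77, 8.71 and 9.22 in 1G11-SOD3 cells (8.90 ± 0.28). The groups overlapped, and 1G11-mock replicate 1 was the lowest of the 6. The difference was 0.31 (SE 0.302, 95% interval -0.36 to 0.97, adjusted p = 0.709, limma), and without that replicate it was -0.02.

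Krt5, the type II partner of Krt14 in basal cells, was at or near background by both probes. Probe A_51_P186856 gave 7.59, 7.74 and 7.0 in 1G11-mock cells and 7.82, 7.93 and 7.73 in 1G11-SOD3 cells, and 1G11-SOD3 replicate 3 was the only spot well above background. Its level was the lowest of the 1G11-SOD3 values. The lowest signal well above background was 6.65 on that array and 7.74 or more on every other array. Probe A_66_P116076 gave 7.32, 7.82 and 7.31 against 7.28, 7.02 and 7.30. These groups did not overlap, by a gap of 0.01, but no spot was well above background. Neither probe was called, and no fold is given.

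On no array did Krt7, Krt17 or Krt18 stand well above background. Their levels lay between 7.15 and 7.55 (Krt7), 6.66 and 7.13 (Krt17) and 7.02 and 7.66 (Krt18) on the 1G11-mock arrays. On the 1G11-SOD3 arrays they lay between 7.02 and 7.42 (Krt7), 6.85 and 7.49 (Krt17) and 7.01 and 7.23 (Krt18). The groups of each overlapped. A difference in these mRNAs was not detectable at this signal, which does not show that they are absent. Krt18, the usual partner of Krt8, and Krt7, which can pair with Krt19, were thus not detected on arrays where Krt19 was. Krt8, which also pairs with Krt19, was detected there by 1 of its probes. Krt14 rose on arrays of which 1 detected its partner Krt5, by 1 of its probes.

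**Figure D3:**
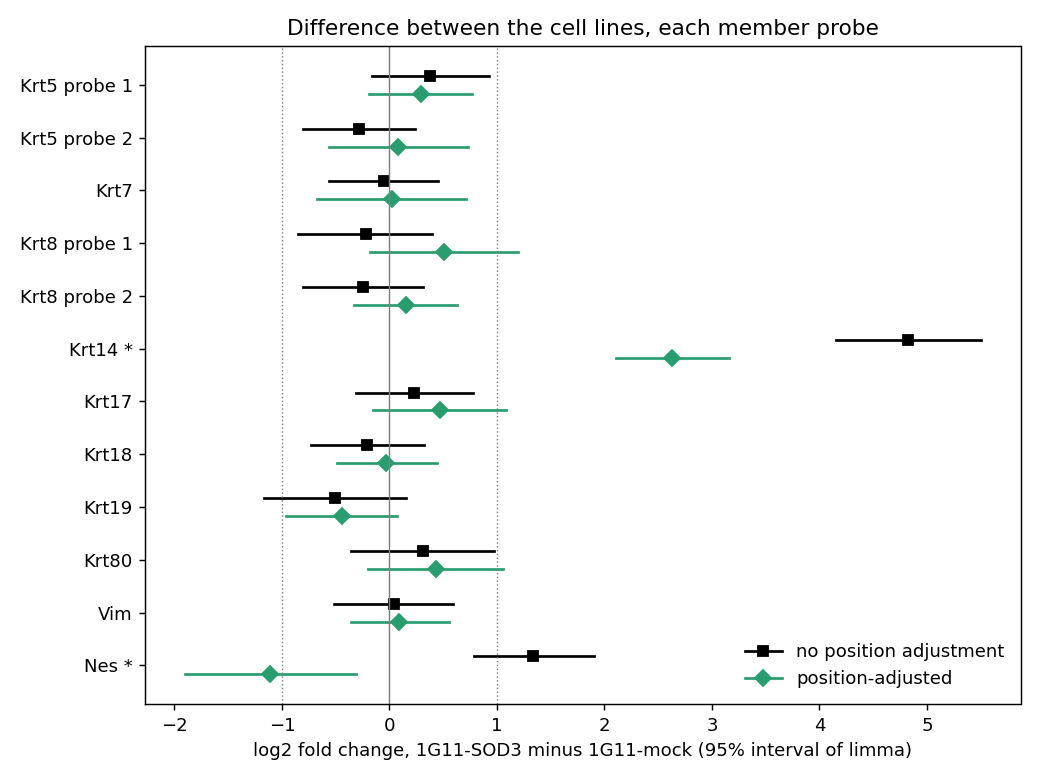
Log2 fold change with its 95% interval by limma (horizontal axis) of each member probe, without (squares) and with (diamonds) the position adjustment. The dotted lines stand at 2-fold, and stars mark spots in the middle of the array: Krt14 is 4.82 and 2.63, Nes is 1.34 and -1.11, and the other intervals include 0.

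The other keratins on the array numbered 46 genes, each taken by its brightest probe. On all 6 arrays 6 of them were well above background (Krt10, Krt16, Krt42, Krt73, Krt85 and Krt222), and on no array 35 were. None was called in either direction, where the shares over all genes were 2.13% higher and 1.27% lower. With the position adjustment, 1 of the 46 was called higher (Krt13) and 3 lower (Krt24, Krt87 and Krt88, all in the middle and well above background on no array), where the shares over all genes were 1.37% and 2.79%. Their median difference was 0.02, against -0.04 over all genes. Those of the 6 with the highest means over the arrays were Krt42 (13.98 ± 0.38 in 1G11-mock and 13.43 ± 0.09 in 1G11-SOD3 cells, difference -0.55, adjusted p = 0.3325, limma), Krt222 (13.12 ± 0.08 and 12.85 ± 0.41, -0.27) and Krt85 (10.45 ± 0.33 and 10.70 ± 0.32, 0.26). Other probes of Krt222 (A_66_P131070, 6.77 and 6.66) and Krt85 (A_55_P2086334, 7.06 and 7.11) were well above background on no array. A Krt85 probe in the middle (A_55_P2086329) was so on all 6, with a difference of -0.09. After position adjustment it was called lower (-1.41, adjusted p = 0.03525, limma), where the brightest Krt85 probe had 0.34. Krt16, a type I keratin of injured and hyperproliferative epidermis, had 10.41 ± 0.09 and 10.37 ± 0.58. By their brightest probes, most keratin genes were thus not detected, and those detected on all arrays did not pass the test.

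Krt13, a type I keratin of the stratified epithelium of mouth and esophagus, had one probe in the middle and one elsewhere, and it is named because they disagreed. The probe elsewhere (A_51_P307964) had a difference of 0.81 (adjusted p = 0.2139, limma), and 1.04 after position adjustment, when it was called higher. The probe in the middle (A_55_P2006296) had 1.45 (adjusted p = 0.04594, limma), called higher, and -0.07 after the adjustment. Neither was well above background on a 1G11-mock array, and no fold is given.

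Beside this list and those below stand the shares over all genes, 2.13% called higher and 1.27% lower. Of the 15 other intermediate filament proteins, 1 was called higher and 0 lower, with a median difference of 0.03. That gene was Lmnb1, a nuclear lamin, with levels of 12.06, 11.51 and 10.59 in 1G11-mock cells and 13.57, 13.32 and 12.36 in 1G11-SOD3 cells (difference 1.70, adjusted p = 0.04377, limma; 1.75 after position adjustment). Lmna, which encodes the A-type lamins, had 16.38 ± 0.22 and 16.71 ± 0.24 (difference 0.32, adjusted p = 0.592). Des, Gfap, Prph and the 3 neurofilament genes Nefl, Nefm and Nefh, which mark muscle, glia and neurons, were well above background on no array.

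Most genes of a list of plakins and of desmosome and hemidesmosome proteins were detected, though not Dsp, Dsg2 and Dsc2 of desmosomes. Of 19 plakin, desmosome and hemidesmosome genes, 13 were well above background on all arrays, 1 was called higher and 1 lower, and the median difference was -0.30. Evpl, the plakin envoplakin, is printed in the middle. It had 12.04 ± 0.65 in 1G11-mock and 13.47 ± 0.34 in 1G11-SOD3 cells (difference 1.43, adjusted p = 0.03867, limma), and after position adjustment it was not called (0.85). Itgb4, the integrin chain of hemidesmosomes, had 13.51 ± 0.11 and 12.27 ± 0.40 (difference -1.24, adjusted p = 0.02361), and after the adjustment it was not called either (-0.93). Plec, the linker of filaments to hemidesmosomes and the cytoskeleton, had 15.52 ± 0.86 and 16.27 ± 0.42 (difference 0.75, adjusted p = 0.4192). Dsp, Dsg2, Dsc2, Eppk1 and Col17a1 were well above background on no array.

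Markers of other cell types were read beside the keratins. Of 18 epithelial markers, 2 were well above background on all 6 arrays, 10 on none, and none was called (median difference -0.12). Epcam, Ocln, Cldn3 and Cldn4, which mark epithelial junctions and surfaces, were among the 10. Trp63, the transcription factor p63 of basal epithelial cells, was well above background on all arrays, with 12.41, 12.27 and 12.06 in 1G11-mock cells and 11.21, 11.29 and 11.98 in 1G11-SOD3 cells (difference -0.75, adjusted p = 0.1885, limma). Esrp2, a splicing regulator of epithelia, had 8.89 ± 0.20 and 9.55 ± 0.25 (0.66, adjusted p = 0.205). Cdh1, which encodes E-cadherin, was well above background on no 1G11-mock and all 3 1G11-SOD3 arrays (7.78 ± 0.19 and 8.09 ± 0.11). Its groups overlapped, the difference was 0.30 (adjusted p = 0.591, limma), and a share of 0.3 of its copies lay in the middle. Ehf (difference 0.01) and Grhl2 (-0.25) were well above background on 2 1G11-mock and 3 1G11-SOD3 arrays each. The Grhl2 probe lay in the middle, and its difference was -0.52 after position adjustment. The summed linear level of the 18 genes was 8042 to 9264 on the 1G11-mock arrays and 6363 to 7590 on the 1G11-SOD3 arrays. Without Trp63, the sum of the other 17 was 3767 to 4172 and 3538 to 3996, and the groups overlapped. The part of epithelial-like cells in the keratin signal was not tested.

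Of 6 mesothelial markers on the array, Msln, Upk3b and Upk1b were well above background on all arrays and Wt1, Bnc1 and Lrrn4 on none. Msln, which encodes mesothelin, was called lower, with 12.73, 12.69 and 12.81 in 1G11-mock cells and 10.61, 10.70 and 11.38 in 1G11-SOD3 cells (difference -1.85, adjusted p = 0.003026, limma; -2.04 after position adjustment). The median difference of the 6 mesothelial markers was 0.08. Their summed level, in which bright genes such as Msln weigh most, was 9311 to 11370 on the 1G11-mock and 4524 to 7193 on the 1G11-SOD3 arrays.

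The endothelial label of the cells was checked against 16 markers. Kdr and Eng, receptors of endothelial cells, Vwf and Esam were well above background on all 6 arrays, whereas Cdh5 (VE-cadherin), Tek, Tie1, Emcn, Erg, Robo4 and Sox17 were so on none. Such a signal does not show that these mRNAs are absent. The study regularly checked by staining for VE-cadherin, thus on protein, that 1G11 cells are endothelial. Pecam1 was well above background on 2 arrays of each cell line. Vwf, the von Willebrand factor, was called lower (10.16 ± 0.09 in 1G11-mock and 8.50 ± 0.30 in 1G11-SOD3 cells, difference -1.65, adjusted p = 0.00345, limma). Egfl7 was called higher (difference 1.82, adjusted p = 0.01751) and after position adjustment was not (0.92). The median difference of the 16 genes was 0.04. Their summed level was 23430 to 31100 on the 1G11-mock arrays and 17370 to 21440 on the 1G11-SOD3 arrays. Bright genes weigh most in this sum, among them Eng (difference -1.05, adjusted p = 0.0848, limma) and Kdr (-0.50, adjusted p = 0.3004), neither of them called. The sum therefore does not stand for the whole list.

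Over all genes, 2.13% were called higher and 1.27% lower, and 1.37% and 2.79% with the position adjustment. Vim stayed within its replicate spread beside a mesenchymal list of which 7 of 14 genes were called higher and 0 lower, with and without position adjustment (median difference 1.05, and 1.20 adjusted). Those 7 were Acta2 (smooth muscle actin, 9.99 ± 0.10 in 1G11-mock and 13.00 ± 0.58 in 1G11-SOD3 cells, 3.01, adjusted p = 0.000389, limma), Col1a1 (3.10), Col3a1 (1.43), Pdgfrb (2.39), Tagln (1.46), Col1a2 and Lum. Col1a2 and Lum, well above background on no 1G11-mock array, were 1.55-fold and 2.55-fold higher against the floor used for Nes. S100a4 (18.05 ± 0.09 and 17.88 ± 0.34), Fn1 (16.05 ± 0.18 and 16.79 ± 1.12) and Dcn (14.43 ± 0.37 and 14.72 ± 2.03), the other bright genes of this list, were not called. The summed level of the list was 395400 to 441200 on the 1G11-mock arrays and 425700 to 868600 on the 1G11-SOD3 arrays. Bright genes weigh most in this sum too, among them S100a4, Fn1 and Dcn, which were not called. Dcn was 17.07 on 1G11-SOD3 replicate 3 and 13.52 and 13.58 on replicates 1 and 2. The sum therefore does not stand for the whole list. Whether these markers have a part in the Krt14 or Nes values was not tested.

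**Figure D4:**
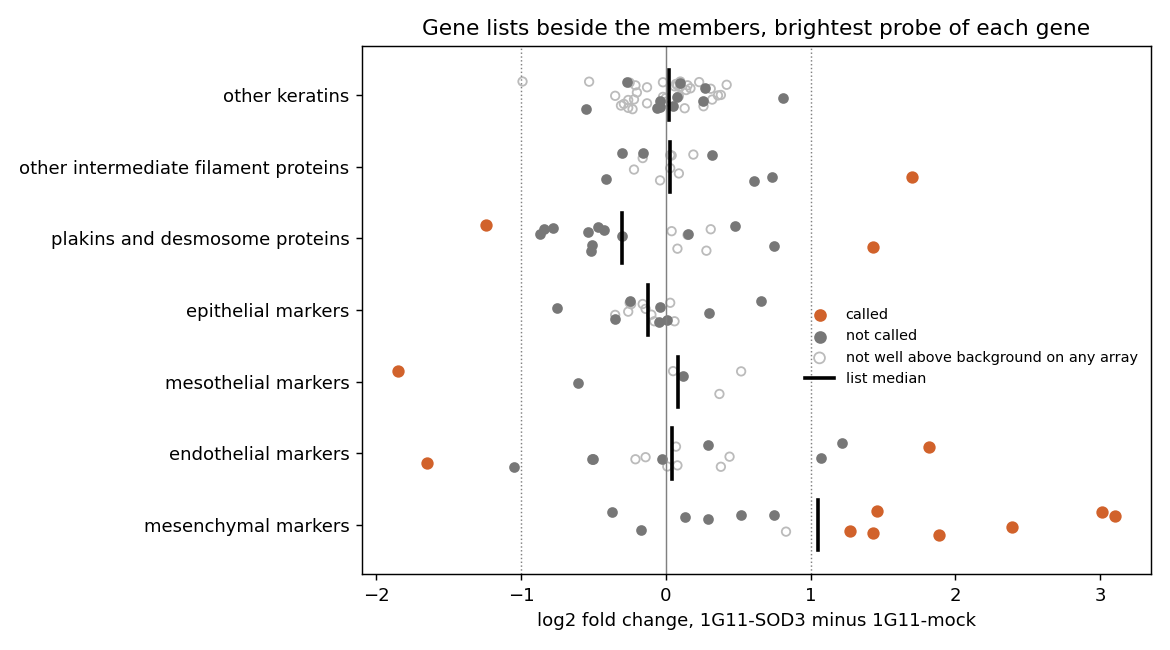
Log2 fold change, 1G11-SOD3 minus 1G11-mock (horizontal axis), of each gene of 7 lists by its brightest probe, with each list's median as a line and dotted lines at 2-fold. Open circles are genes well above background on no array. Of 46 other keratins 0 were called and of 14 mesenchymal genes 7, where 2.13% of all genes were called higher and 1.27% lower.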

How the data were processed

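The authors deposited Agilent Feature Extraction 10.7.3.1 output for 6 arrays, with the mean intensity and local background of each spot, before any normalization, and their own log2 table (each array's median 7.52), which they had corrected with normexp (offset of 50) and quantile normalized. Here, mean intensities were corrected with normexp (offset of 50), taken to log2 and quantile normalized without control spots in limma 3.58.1 (R 4.3.3). Spots with outlier flags were left out (no member had one), and copies of a probe were averaged. The fit (lmFit, eBayes, Benjamini-Hochberg) took all 55681 probes and 6 arrays. Position surfaces lowered the median SD of the difference among copies of 208 probes printed 10 times from 0.495 to 0.173. Genes were named by RefSeq accession (27656 probes), by description or by the array. Every member probe is named, and of each list the called genes and the brightest detected ones. The members and lists were chosen with earlier results of these data known. Other genes named in the text were chosen after their values were seen.

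Replicates of one number shared a slide column, and their deviations correlated (0.164, 0.103 and 0.156 over 16279 probes). Replicates correlated with each other at 0.942 to 0.980. With 3 arrays per cell line, the number of arrays limits the precision, and an exact permutation test cannot give a 2-sided p below 0.1. The alternatives are given in the closing section. Figures were drawn with matplotlib 3.10.9 in Python 3.11.15.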

Additional observations from a re-analysis of the deposited data

How the results depend on the processing

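The 2 member probes called higher became 1 with no background correction, with the scanner's processed signal (scaled at the 75th percentile) and with either position adjustment, and 0 when spots in the middle were dropped, where Krt14 and Nes have no value. With 1 array left out they were 1 to 2. No setting called a member lower. Krt14 kept its call in all settings that gave it a value (1.69 to 5.09). Nes lost its call with no background correction (0.81, under 2-fold, adjusted p = 0.02731, limma) and with the processed signal (1.35, adjusted p = 0.08033), and turned to -1.11 and, with finer blocks, -1.41 after position adjustment. Signs of differences within the replicate spread turned for Krt8 probe A_66_P128079 (0.15 and 0.23 with the position adjustments), for Krt80 (-0.02 without 1G11-mock replicate 1, up to 0.52 without others) and for Vim (-0.01 with finer blocks, 0 without 1G11-mock replicate 2, -0.08 and -0.07 without 1G11-SOD3 replicates 2 and 3, up to 0.28 without others). Krt19 stayed negative and not called throughout. The 13 called genes of the 7 lists became 8 with no background correction, 35 with the processed signal and 6 to 11 with 1 array left out, the fewest without 1G11-mock replicate 2. Leaving out 1 array moved Sod3 between 3.18 and 5.07, and its call was lost without 1G11-SOD3 replicate 3 (4.32, adjusted p = 0.05074). With the replicate block, 2 member probes were called higher, and it changed no member call. Cause was not tested for any of these, apart from the missing values. Over all probes, 1624 calls (63.9% higher) became 888 with no background correction, 765 without the middle, 11082 with the processed signal (10.9% higher, all probes shifted by -0.52) and 748 to 1795 with 1 array left out; position adjustment gave 28.9% higher. Scaling to the 75th percentile shifted all probes by -0.33. A slide block was not run, since there was 1 slide. Signal over background limits Krt5, Krt7, Krt17, Krt18 and Nes.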
